A study of Mus musculus with 8 samples.

Results

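The genes described here are 10 components of the desmosome, namely the desmocollins Dsc1, Dsc2 and Dsc3, the desmogleins Dsg1a, Dsg2 and Dsg3, and the plaque genes Dsp, Pkp1, Pkp3 and Jup. They were taken by symbol from the deposited counts, where all 10 of them were found among 24419 gene symbols. Their RNA was followed in bulk libraries of 4 mouse models of endometrial cancer, with 2 libraries per model from separate mice. All models began as uterus organoids of adult female mice that express Cas9 and EGFP under the CAG promoter, carried edits that include an sgRNA against Trp53, and were transplanted into the uterus of adult female nude mice (BALB/cA-nu). TPM organoids also overexpressed Myc together with luciferase. TPMCa organoids (TPMPik3ca in the sample labels) were made as TPM with a mutant Pik3ca cDNA added, and TPMR1 organoids (TPMPik3r1) as TPM with an sgRNA against Pik3r1 added. TPK organoids had no introduced Myc and carried another oncogene cDNA. By the labels the RNA came from tumor organoids, and by the study's methods from tumors harvested some 2 months after the transplant. A tumor grew from a pool of edited organoids, and the host contributed its own stroma.

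Desmosomes are spot-like junctions that anchor the intermediate filaments of one epithelial cell to those of its neighbor. Desmocollins and desmogleins are the cadherins that meet in the space between the cells. Their tails bind plakoglobin (Jup) and the plakophilins (Pkp), which in turn bind desmoplakin (Dsp), and desmoplakin holds the keratin filaments. Dsc2 and Dsg2 are made in nearly all epithelia that have desmosomes, including the simple epithelium of the endometrium. Dsc3, Dsg3 and Pkp1 mark stratified epithelium such as epidermis, and Dsc1 and Dsg1 mark its upper, differentiated layers. The comparison of TPMCa and TPMR1 with TPM asks how activation of the PI3K pathway changes a tumor with squamous features, and TPK is a further squamous model.

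RefSeq promoter sequence (GRCm38.p6, 250 bases before to 50 after the gene start) was matched by symbol for 2 of the 10 genes, Dsp and Jup. Both are shown, and Jup had more RNA per kilobase of exon than Dsp in every library except TPM replicate 1. Each is written 5′ to 3′ on the strand of its gene, and capitals mark matches on either strand to GGGCGG, the GC box of the Sp family, or CACCTG, an E-box that Snai and Zeb factors can bind.
Dsp promoter, chr13:38151044-38151343, plus strand: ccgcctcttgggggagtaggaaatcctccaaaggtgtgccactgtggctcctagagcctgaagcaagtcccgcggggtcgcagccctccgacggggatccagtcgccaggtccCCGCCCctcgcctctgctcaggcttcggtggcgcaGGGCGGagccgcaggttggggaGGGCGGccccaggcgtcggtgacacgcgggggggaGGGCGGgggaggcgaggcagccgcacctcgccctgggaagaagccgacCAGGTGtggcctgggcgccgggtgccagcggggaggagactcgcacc
Jup promoter, chr11:100397741-100398040, minus strand: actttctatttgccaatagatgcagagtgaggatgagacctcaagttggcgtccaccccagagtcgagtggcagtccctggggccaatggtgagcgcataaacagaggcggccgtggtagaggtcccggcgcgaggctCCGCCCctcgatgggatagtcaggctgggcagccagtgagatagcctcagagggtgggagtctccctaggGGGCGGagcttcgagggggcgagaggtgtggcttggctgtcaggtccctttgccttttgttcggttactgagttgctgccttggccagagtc
The Dsp window had a GC content of 73% with 4 GC boxes and 1 E-box, and the Jup window had a GC content of 60.7% with 2 GC boxes and 0 E-boxes. Of 32851 promoter windows of the same length, 35.7% held a GC box and 20.2% held CACCTG, the E-box. The AP-1 site TGANTCA was in 7.81% of windows, and the Grhl site, written AACCGGTT, was in 0.146%. Both of these had 0 matches in the Dsp and Jup windows. A match is only a match of letters.

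The 6 cadherin genes lie in one cluster of 644 kb on chromosome 18 of GRCm38, from Dsc3 at 19960930-20002351 through Dsc2 at 20030633-20059554 and Dsc1 at 20084184-20114871 on the minus strand to Dsg1a at 20310811-20343350, Dsg3 at 20510274-20547459 and Dsg2 at 20558074-20604521 on the plus strand. The plaque genes are scattered. Dsp is on chromosome 13 from 38151294 to 38198577 on the plus strand, Jup on chromosome 11 from 100368958 to 100397763 on the minus strand, Pkp1 on chromosome 1 from 135871395 to 135919207 on the minus strand and Pkp3 on chromosome 7 from 141078218 to 141090510 on the plus strand. All 10 are protein-coding genes in the GENCODE M21 annotation. Exons of Dsp and Dsg2 overlap antisense genes over 499 and 330 bases, and reads there cannot be assigned because the strand of counting is not stated.

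Total counts ranged from 15748396 to 26943611 per library (median 16636836.5), and 3 counts, taken as the detection floor, equaled 0.116 to 0.198 CPM (counts scaled to a common library size with TMM factors). This floor covers counting error only. Of all genes, 15875 passed the filter on low counts, all 10 desmosome genes among them. Dsc1, Dsc3, Dsg1a and Dsg3 passed through TPM or TPK, where they were high, since at most 1 of the 4 TPMCa and TPMR1 libraries held 10 or more counts of any of them. Counts and medians over the 10 genes are therefore descriptions. The libraries differed in their tissue markers. The summed level of 6 general epithelial markers (Epcam, Cdh1, Krt7, Krt8, Krt18, Krt19) was 5498 and 2941 CPM in TPM and 3236 and 4963 CPM in TPK, against 73.3 and 23.7 CPM in TPMCa and 6.47 and 27.4 CPM in TPMR1, with none of the 6 markers at 0 in any library. Thus the TPMCa and TPMR1 libraries held little RNA of these markers. The study drew its adenocarcinoma label of both models from gland structures in sections, protein staining and RNA. These sums bear on the RNA alone. Squamous markers (Krt5, Krt14, Krt6a, Krt1, Ivl, Lor) summed to between 3777 and 19289 CPM in the TPM and TPK libraries and to between 1.45 and 7.03 CPM in the others, where Krt1 was at 0 in all 4 libraries. Fibroblast markers summed to 1732 and 4692 CPM at the lowest and highest in TPM, 1724 and 7526 CPM in TPK, 6471 and 12482 CPM in TPMCa, and 661 and 5514 CPM in TPMR1. Both TPMR1 libraries stood apart in 4 steroidogenic or gonadal markers (Gata4, Nr5a1, Star, Cyp11a1). These summed to 5126 CPM in replicate 1 and 531 CPM in replicate 2, against 7.84 to 31.4 CPM in the other models. Cyp11a1 alone was at 3768 CPM in replicate 1, while Gata4 was higher in replicate 2 (183 against 137 CPM). Bulk counts cannot tell fewer epithelial cells from less RNA per cell, and the part of tissue makeup in the results below was not tested.

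The summed level of the 10 desmosome genes was 7992 and 3195 CPM in TPM and 4465 and 3462 CPM in TPK. It was 46.0 and 66.4 CPM in TPMCa and 45.5 and 78.3 CPM in TPMR1. Every one of the 10 genes was higher in each of the 4 TPM and TPK libraries than in each of the 4 TPMCa and TPMR1 libraries. For Dsc1 this order is not resolved, since replicate 2 of TPK and of TPMR1 each had 1 count. Dsg1a had 2 counts in TPK replicate 2 against 1 at most, also under the floor. Both TPK libraries lay above all 4 TPMCa and TPMR1 libraries in 22.4% of all genes tested, and both TPM libraries in 19.4%. No share was taken for TPM and TPK together. TPM had the highest mean level for 8 genes, and TPK for Dsc2 and Pkp3. The libraries of TPM and TPK overlapped for 6 of the genes, and those of TPMCa and TPMR1 for 8. Of all genes tested, 24.4% had both TPK libraries above both TPM libraries and 23.5% had both below. For TPMR1 against TPMCa these shares were 18.8% and 17.7%. Dsc1, Dsg1a and Dsg3 had 3 counts or fewer in every TPMCa and TPMR1 library.

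**Figure D1:**
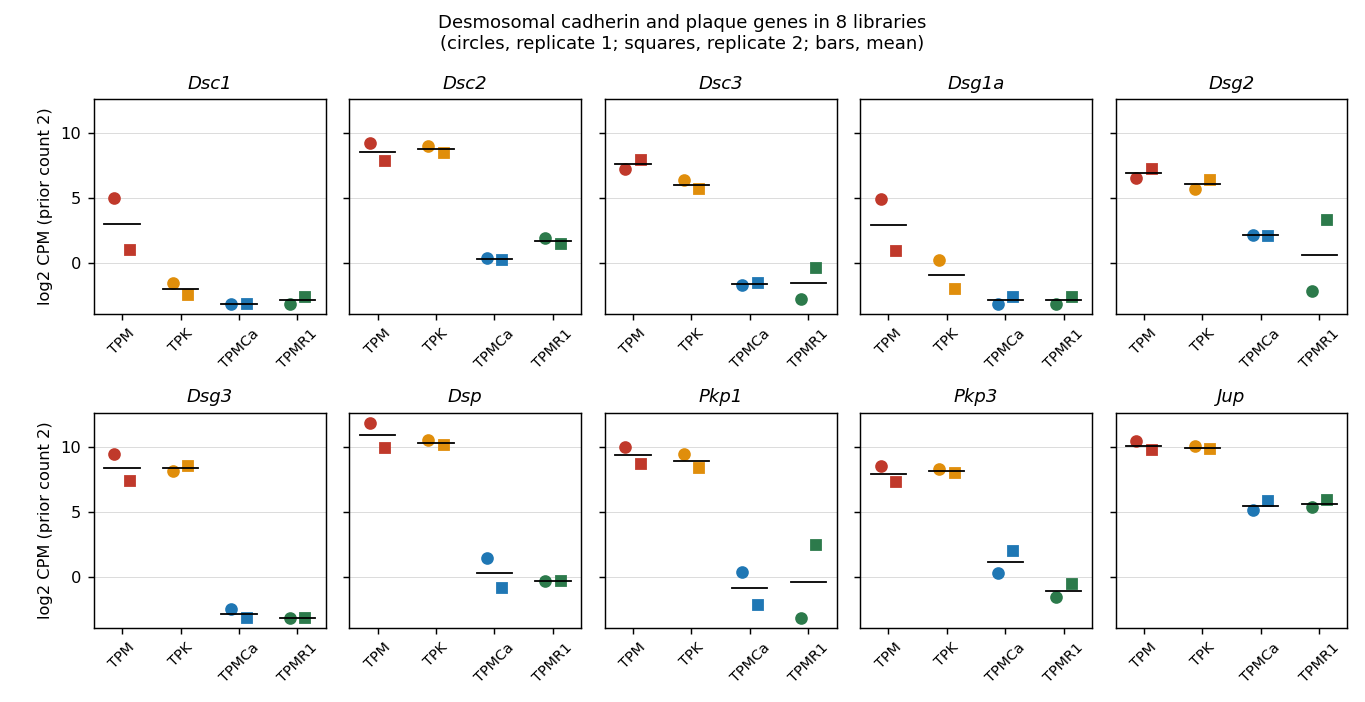
Level of each of the 10 desmosome genes in 8 libraries, as log2 CPM with a prior count of 2, by model (circles, replicate 1; squares, replicate 2; bars, mean of the 2). All TPM and TPK points lie above all TPMCa and TPMR1 points in each panel, and Jup is the gene with the smallest distance in the log2 fold changes of TPMCa and TPMR1 against TPM. In TPK replicate 2 the points of Dsc1 and Dsg1a rest on 1 and 2 counts.

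Among the desmocollins, Dsc2 was the most abundant per kilobase of exon in TPM replicate 1 and in both TPK libraries. It was at 597 and 232 CPM in TPM, 524 and 352 CPM in TPK, 1.20 and 1.06 CPM in TPMCa and 3.68 and 2.67 CPM in TPMR1. The libraries fell into a high and a low set without overlap, and TPMR1 lay above TPMCa in both libraries. In the edgeR quasi-likelihood test, which was adjusted over all 15875 genes by the Benjamini-Hochberg method, Dsc2 fell by 8.51 (log2) in TPMCa against TPM (SE 0.658, adjusted p = 0.0051) and fell by 7.02 in TPMR1 against TPM (SE 0.610, adjusted p = 0.00489). Dsc3, the desmocollin of basal stratified cells, was at 151 and 245 CPM in TPM and at 83.9 and 50.6 CPM in TPK. In TPMCa it was at 0.190 and 0.223 CPM, close to the floor, and in TPMR1 it had 1 count in replicate 1 and 12 counts in replicate 2. Dsc3 fell by 9.85 (log2) in TPMCa (SE 1.10, edgeR adjusted p = 0.0104) and fell by 9.22 in TPMR1 (SE 1.05, edgeR adjusted p = 0.00832).

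Dsc1, the desmocollin of the upper epidermal layers, depended on a single library. It was at 31.5 CPM in TPM replicate 1 and at 1.83 CPM in TPM replicate 2, and had 4 and 1 counts in TPK. TPMCa had 0 counts in both libraries, and TPMR1 had 0 and 1 counts. The mean of TPM was therefore at least 93.3-fold higher than TPMCa, with the floor set at 3 counts per library. Against TPMR1, counts pooled over both libraries of each model and scaled to their size gave a ratio of 713 (counting interval 128 to 28225). Neither difference passed the edgeR test (adjusted p = 0.0733 for TPMCa and 0.0682 for TPMR1). The part of the spread between the TPM libraries in this was not tested.

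The desmogleins differed among themselves in how much RNA was left. Dsg3, the desmoglein of basal stratified cells, was at 689 and 166 CPM in TPM and 287 and 378 CPM in TPK. It was at or under the floor elsewhere, with 1 and 0 counts in TPMCa and 0 counts in both TPMR1 libraries. Dsg3 fell by 13.51 (log2) in TPMCa (SE 1.29, edgeR adjusted p = 0.0109), and the ratio of the pooled and scaled counts was 14212 (counting interval 2550 to 561402). In TPMR1 its edgeR adjusted p was 0.00758, and TPM was at least 3024-fold higher. Dsg2, the desmoglein that simple epithelia also make, was less reduced than Dsg3 in TPMCa and in TPMR1 replicate 2. In TPMR1 replicate 1 it had 3 counts, at the floor, and the difference among the desmogleins was not tested. It was at 91.2 and 153 CPM in TPM, 52.3 and 83.7 CPM in TPK, 4.43 and 4.06 CPM in TPMCa, and 0.116 and 9.67 CPM in TPMR1. The TPMCa libraries were alike, while the TPMR1 libraries were 83.3-fold apart with 3 and 174 counts. The log2 difference from TPM was -4.84 in TPMCa (SE 1.51, edgeR adjusted p = 0.132) and -4.65 in TPMR1 (SE 1.49, edgeR adjusted p = 0.126), so Dsg2 passed in neither comparison.

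Dsg1a, one of 3 near-identical mouse copies of the desmoglein of the upper epidermal layers, followed Dsc1. It was at 30.2 and 1.77 CPM in TPM and at 1.03 and 0.132 CPM in TPK, and had 0 and 1 counts in TPMCa and in TPMR1. In counts pooled over both libraries and scaled to their size, the ratio of TPM to TPMCa was 527 (counting interval 94.1 to 20846) and that of TPM to TPMR1 was 684 (122 to 27057). Each ratio rests on 1 count in the low model, and the intervals overlap. Neither difference passed (edgeR adjusted p = 0.0822 and 0.0644). Reads can be split among Dsg1a, Dsg1b and Dsg1c by the authors' counting, so their sum is the safer measure. Summed over the copies, there were 2031 and 198 counts in TPM, 238 and 35 in TPK, and 0 and 2 in both TPMCa and TPMR1. Replicate 1 of TPM was again highest, but TPK replicate 1 (13.6 CPM) now lay above TPM replicate 2 (11.3 CPM), so the libraries of TPM and TPK overlapped in the sum and not in Dsg1a alone.

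Of the plaque genes, desmoplakin (Dsp), which joins the junction to keratin, was the most abundant of the 10 genes per kilobase of exon in TPM replicate 1. It was at 3647 and 973 CPM in TPM, 1458 and 1103 CPM in TPK, 2.60 and 0.445 CPM in TPMCa, and 0.697 and 0.667 CPM in TPMR1. The 4 low libraries held between 8 and 41 counts of Dsp, and the 4 high ones 16725 or more. Dsp fell by 10.57 (log2) in TPMCa (SE 1.23, edgeR adjusted p = 0.0118) and fell by 11.71 in TPMR1 (SE 1.28, edgeR adjusted p = 0.00763).

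Plakoglobin (Jup), which binds cadherin tails in desmosomes and in adherens junctions, kept the highest level of the 10 genes per kilobase in TPMCa and TPMR1. It was at 1375 and 853 CPM in TPM, 1044 and 919 CPM in TPK, 35.2 and 56.6 CPM in TPMCa, and 40.7 and 58.7 CPM in TPMR1. No other of the 10 genes exceeded 9.67 CPM in a TPMCa or TPMR1 library. Per kilobase of exon, Jup lay between 5.47 and 9.12 CPM in these 4 libraries and every other gene at 1.17 CPM or lower. Jup fell by 4.60 (log2) in TPMCa (SE 0.449, edgeR adjusted p = 0.00767) and fell by 4.49 in TPMR1 (SE 0.447, edgeR adjusted p = 0.00525). Endothelial cells also use plakoglobin, and their cadherin Cdh5 was at 38.6 and 29.6 CPM in TPM, 166 and 186 CPM in TPMCa, and 56.7 and 255 CPM in TPMR1. The share of endothelial RNA in the remaining Jup was not tested.

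The plakophilins Pkp1 and Pkp3 stabilize the plaque, Pkp1 mainly in stratified epithelium and Pkp3 in most epithelia. Pkp3 was at 367 and 153 CPM in TPM, 308 and 251 CPM in TPK, 1.14 and 3.90 CPM in TPMCa, and 0.232 and 0.556 CPM in TPMR1. Here TPMR1 lay below TPMCa in both libraries. Pkp3 fell by 6.68 (log2) in TPMCa (SE 0.824, edgeR adjusted p = 0.0138) and fell by 9.39 in TPMR1 (SE 0.946, edgeR adjusted p = 0.00555). Pkp1 was at 1013 and 415 CPM in TPM and at 706 and 325 CPM in TPK. It had 19 and 2 counts in TPMCa, and 0 and 94 counts in TPMR1, where replicate 2 stood at 5.22 CPM. The log2 differences of -10.10 in TPMCa (SE 2.29) and -8.12 in TPMR1 (SE 2.09) did not pass (edgeR adjusted p = 0.0672 and 0.0770).

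In all, 6 of the 10 genes (Dsc2, Dsc3, Dsg3, Dsp, Pkp3 and Jup) fell in TPMCa against TPM, where 3.02% of the 15875 genes tested were called lower. The same 6 genes fell in TPMR1 against TPM, where 4.5% were called lower. Both comparisons use the same TPM libraries. All 10 genes had both TPMCa libraries below both TPM libraries, a pattern found in 32.2% of all genes, and all 10 had both TPMR1 libraries below both TPM libraries, found in 28.4%. The median log2 difference over the 10 genes was -9.32 in TPMCa, or -8.65 with Dsc1 set at its bound, and -9.04 in TPMR1, beside -0.013 and 0.031 over all genes. Leaving out either TPMCa library left 0 of the 10 genes called in TPMCa, with edgeR adjusted p between 0.0601 and 0.102 for the 6 genes, and 38 and 40 genes called in the whole table. A fit of TPM and TPMR1 alone left 0 called in TPMR1 (edgeR adjusted p between 0.0581 and 0.0887 for the 6), whereas leaving out TPMR1 replicate 1 gave 8 and leaving out replicate 2 gave 8. DESeq2 called all 10 genes lower in each comparison, against 16.1% and 17.0% of all genes called in either direction. Numbers called over all genes are not given for the fit of TPM and TPMR1 alone or the fits without a TPMR1 library. For a single gene, 2 libraries against 2 cannot give an exact two-sided permutation p below 0.333.

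**Figure D2:**
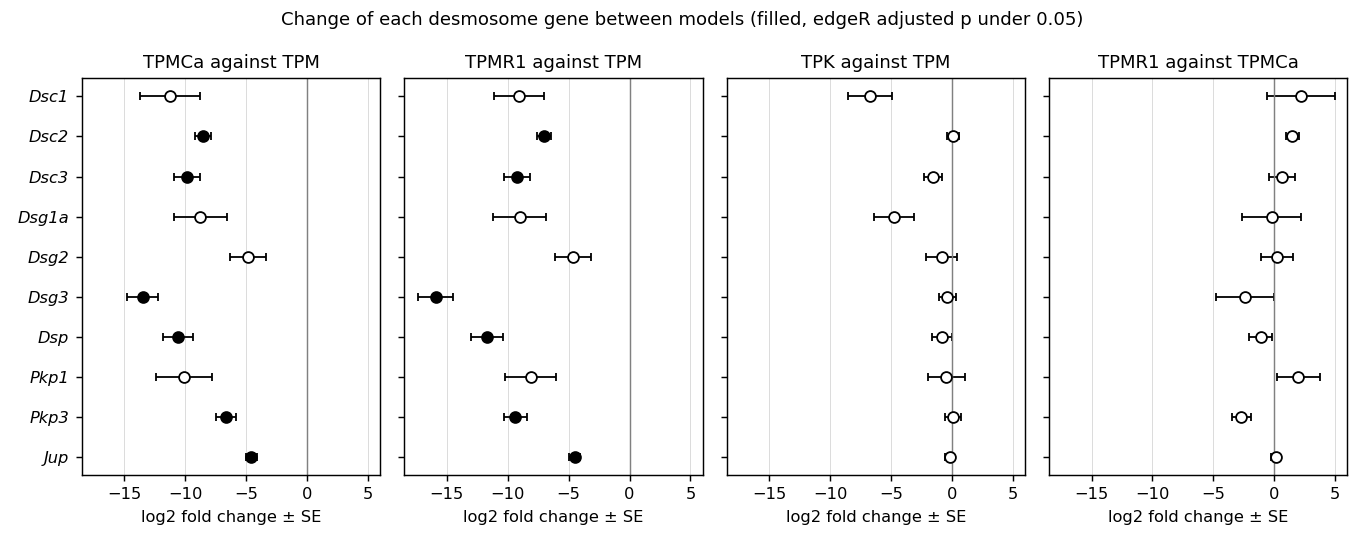
Log2 fold change of each gene (points) with its SE (bars) from edgeR in 4 comparisons of models, with filled points where the adjusted p was under 0.05. In TPMCa and TPMR1 against TPM all 10 points lie left of 0 and 6 are filled, while TPK against TPM and TPMR1 against TPMCa have no filled point. Fitted values of Dsc1 in TPMCa and Dsg3 in TPMR1, where all counts were 0, depend on the fit and are no bound.

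TPK was compared with TPM to set the 2 models with high levels side by side. None of the 10 genes passed the edgeR test (adjusted p between 0.653 and 0.986), and 0% of all genes did, although 1138 genes had an unadjusted p under 0.05 and DESeq2 called 245. The median log2 difference over the 10 genes was -0.66, beside 0.012 over all genes. Dsc2, Pkp3 and Jup were close, with log2 differences of 0.08 (SE 0.466), 0.11 (SE 0.636) and -0.18 (SE 0.386). Dsc1 had a log2 difference of -6.73 (SE 1.79, edgeR adjusted p = 0.653), which DESeq2 called (adjusted p = 0.00601). Dsg1a had a log2 difference of -4.75 (SE 1.68, edgeR adjusted p = 0.678). Both values moved with single libraries, to -3.57 and -1.61 without TPM replicate 1 and to -7.86 and -6.87 without TPK replicate 1. At -1.61 Dsg1a was close to Dsc3, which had a log2 difference of -1.56 with all libraries. Both TPK libraries lay below both TPM libraries for 4 genes, namely Dsc1, Dsc3, Dsg1a and Dsg2, and above them for 0 genes, where 23.5% and 24.4% of all genes had these patterns.

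In TPK, 7 of the 10 genes were higher by edgeR than the mean level of the 2 low models, TPMCa and TPMR1, where 10.3% of all genes were called higher. The smallest of the 7 adjusted p-values was that of Dsc2 at 0.000683 (log2 difference 7.85, SE 0.465), and the largest that of Pkp1 at 0.0168 (8.64, SE 1.57). Dsg2 (3.90, adjusted p = 0.0613), Dsg1a (4.15, adjusted p = 0.126) and Dsc1 (3.42, adjusted p = 0.272) did not pass this edgeR test. TPM, against the same mean, was higher in all 10 genes, where 7.44% of all genes were called. Dsg2 was at the margin there (log2 difference 4.75, SE 1.13, edgeR adjusted p = 0.0494), and 6 of 10 genes were called without TPM replicate 1, 6 without TPMCa replicate 1 and 6 without TPMCa replicate 2. No overlap with the 4 low libraries was seen in all 10 genes for TPK and for TPM, patterns found in 22.4% and 19.4% of all genes. For Dsc1 and Dsg1a in TPK this rests on 1 and 2 counts in replicate 2, under the floor. These comparisons share libraries with those above.

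TPMR1 and TPMCa were also compared with each other, to see whether the low levels differed with the altered PI3K subunit. None of the 10 genes passed the edgeR test, and 0% of all genes did (1867 genes at an unadjusted p under 0.05, and 806 called by DESeq2). Dsc2 was higher in both TPMR1 libraries (log2 difference 1.49, SE 0.520, edgeR adjusted p = 0.395), a pattern found in 18.8% of all genes. Pkp3 was lower in both (-2.71, SE 0.786, edgeR adjusted p = 0.376), a pattern found in 17.7%, and DESeq2 called it (adjusted p = 0.0247). Jup differed by 0.11 (SE 0.388). Dsg2 moved with 1 library, from a log2 difference of 0.19 with all libraries to -5.11 without TPMR1 replicate 2 (edgeR adjusted p = 0.0171). That fit left a single TPMR1 library with 3 counts of Dsg2, which was assumed to vary like the libraries of the other models.

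The 2 TPM tumors differed from each other in these genes. For 8 of 10 genes replicate 1 was higher. Genes over 2-fold apart were counted on log2 CPM with a prior count of 2, where 7 of the 10 were over 2-fold higher in replicate 1 and 17.0% of all genes were over 2-fold apart in either direction. On CPM without a prior count, Dsc1 was 17.2-fold and Dsg1a 17.0-fold higher in replicate 1, and Dsg3 4.14-fold and Dsp 3.75-fold. Dsc2, Pkp1 and Pkp3 were 2.57-fold, 2.44-fold and 2.40-fold higher there and Jup 1.61-fold. By contrast Dsc3 was 1.62-fold and Dsg2 1.68-fold higher in replicate 2. The keratins of the upper epidermal layers moved the same way, with Krt1 at 917 CPM in replicate 1 and 5.72 CPM in replicate 2, and Krt10 at 2942 and 27.7 CPM. The 6 squamous markers summed to 16476 CPM in replicate 1 and 3777 CPM in replicate 2, and their part in the difference was not tested. With the prior count, 2 of the 10 genes in TPK (Dsg1a and Pkp1) were over 2-fold higher in replicate 1 and 0 in replicate 2, while 19.1% of all genes were over 2-fold apart. The TPMR1 libraries were over 2-fold apart in 3 of the 10 genes and in 37.1% of all genes, and all 3 (Dsc3, Dsg2 and Pkp1) were higher in replicate 2. Without the prior count, Dsc1 in TPK (3.47-fold from 4 and 1 counts) and Pkp3 in TPMR1 (2.39-fold from 6 and 10 counts) also exceeded 2-fold, and Dsc1 and Dsg1a in TPMR1 had 0 and 1 counts, which give no ratio.

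**Figure D3:**
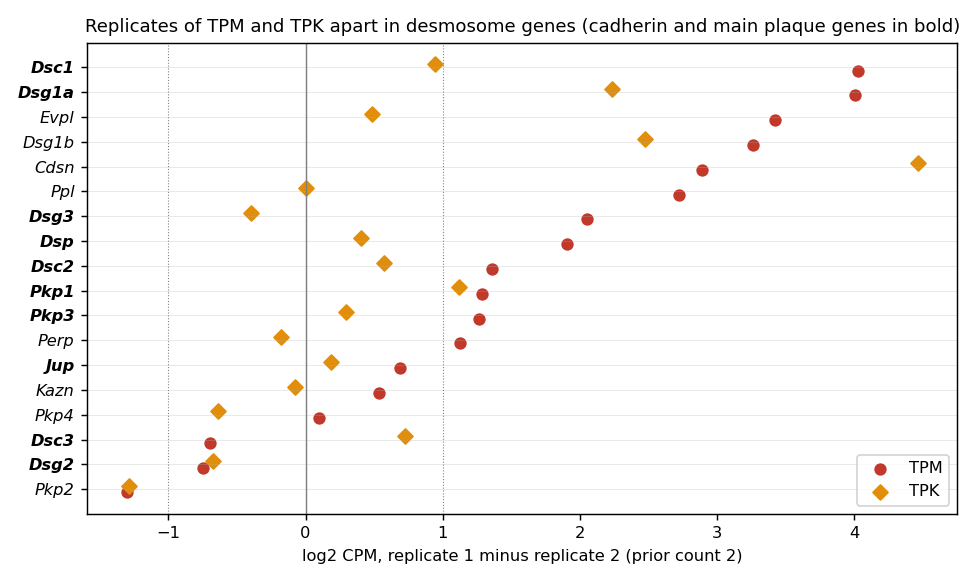
Difference of log2 CPM (prior count 2) between replicate 1 and replicate 2 for desmosome genes in TPM (circles) and TPK (diamonds), with the 10 genes in bold and dotted lines at a 2-fold difference. In TPM, Dsc1 and Dsg1a lie near 4, most other genes lie to the right of 0, and Dsc3, Dsg2 and Pkp2 lie to the left.

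Levels of different genes were compared per kilobase of exon. In each TPM and TPK library Dsp and Jup were the most abundant pair of the 10 genes per kilobase, with Dsp at 378 and 101 CPM per kilobase in TPM and 151 and 114 in TPK, and Jup at 214 and 133 in TPM and 162 and 143 in TPK. Dsg3 exceeded Dsg2 in each of these libraries, by 8.95 and 1.29 times in TPM and by 6.50 and 5.34 times in TPK. In TPMCa and in TPMR1 replicate 2 this order was turned, since Dsg3 had 1 count at most where Dsg2 had 70 to 174 counts. In TPMR1 replicate 1 the counts of 0 and 3 lay at or under the floor and left the order unresolved. Dsc3 stood at 0.247 and 1.03 times Dsc2 per kilobase in TPM and at 0.156 and 0.140 times in TPK. The 2 TPM libraries differed more in the balance of their cadherins than the 2 TPK libraries did. Jup was at 0.566 and 1.32 times Dsp in TPM and at 1.07 and 1.25 times in TPK. In TPMCa it was at 20.4 and 191 times, and in TPMR1 at 87.6 and 132 times Dsp. Pkp1 stood at 60.3 and 9.97 times Pkp2 in TPM and 58.1 and 10.9 times in TPK, and at 0.342 times or less in the other 4 libraries. These ratios are descriptions, with the counts of the low libraries given above.

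Of 10 further desmosome genes, 8 passed the filter, and Dsg1c and Dsg4 did not. In TPMCa against TPM 3 of the 8 were called lower by edgeR and 0 higher. They were the envelope plakins Evpl (log2 difference -7.24, adjusted p = 0.0302) and Ppl (-6.13, adjusted p = 0.0488) and the periplakin-binding Kazn (-2.31, adjusted p = 0.0263). In TPMR1 4 of the 8 were called lower and 0 higher, namely Evpl (-6.24, adjusted p = 0.0311), Perp, a membrane protein of the desmosome (-9.95, adjusted p = 0.0311), Kazn (-1.92, adjusted p = 0.0334) and Pkp4 (-1.71, adjusted p = 0.0301). Ppl was not called in TPMR1. It was at 215 and 39.0 CPM there against 1099 and 167 CPM in TPM, so the libraries overlapped. Median log2 differences of the 8 genes were -6.68 and -4.28. Pkp2, the plakophilin of simple epithelia and heart muscle, was at 17.9 and 44.4 CPM in TPM, 12.97 and 31.8 CPM in TPK, 16.02 and 3.23 CPM in TPMCa, and 20.7 and 16.3 CPM in TPMR1. Its libraries overlapped between TPM and TPMR1, and neither log2 difference from TPM passed (-1.70, edgeR adjusted p = 0.293 in TPMCa, and -0.75, adjusted p = 0.645 in TPMR1). Perp was at 1557 and 712 CPM in TPM and at 5.57 and 0.612 CPM in TPMCa, where the edgeR adjusted p was 0.0507. Dsg1b, a second copy of Dsg1, was at 91.9 and 9.50 CPM in TPM and had 0 counts in all TPMCa and TPMR1 libraries, which made TPM at least 284-fold and 358-fold higher. Corneodesmosin (Cdsn), a protein of cornified desmosomes, was at 265 and 35.7 CPM in TPM and 0.38 CPM or less in TPMCa, without passing (edgeR adjusted p = 0.0660).

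The adherens junction is the neighboring junction that shares plakoglobin. Of 8 genes listed for it, which include the mesenchymal cadherins Cdh2 and Cdh11, 2 were called lower in TPMCa and 3 in TPMR1 with 0 higher. Their median log2 differences were -1.01 and -1.34, and a difference from the desmosome genes was not tested. E-cadherin (Cdh1), at 787 and 698 CPM in TPM and 6.97 CPM or less in TPMCa and TPMR1, fell by 6.91 (log2) in TPMCa and fell by 10.92 in TPMR1 (edgeR adjusted p = 0.00258 and 0.0011). P120 catenin (Ctnnd1), which binds classical cadherins, fell by 1.92 and fell by 1.47 (edgeR adjusted p = 0.0203 and 0.0313). Beta-catenin (Ctnnb1), the close relative of plakoglobin, had log2 differences of -0.70 and -0.69 and did not pass (edgeR adjusted p = 0.289 and 0.299). N-cadherin (Cdh2), of mesenchymal and neural cells, had log2 differences of 4.01 and 3.61 and did not pass either (edgeR adjusted p = 0.0934 and 0.101). Cdh11, the other mesenchymal cadherin listed, was at 57.3 and 30.2 CPM in TPM and at 54.3 and 47.4 CPM in TPMCa. In TPMR1 Cdh11 was lower, at 1.66 and 9.39 CPM. Among 8 intermediate filament genes, the partners of desmoplakin, 2 were called lower in TPMCa (Krt5 and Krt14) and 4 in TPMR1 (Krt5, Krt8, Krt14 and Krt18), with 0 higher. Krt14, the basal keratin, was at 5380 and 1539 CPM in TPM and at 5.57 CPM or less in TPMCa and TPMR1. Vim, the filament of mesenchymal cells, had log2 differences of 3.23 and 1.91, and neither passed (edgeR adjusted p = 0.110 and 0.248).

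Of 7 transcription factors of epithelial or mesenchymal cells, 3 were called lower and 1 higher in TPMCa, and 4 lower and 2 higher in TPMR1. The grainyhead-like factors Grhl1, Grhl2 and Grhl3, which are active in epithelia, fell in both models and had log2 differences of -5.90, -6.48 and -7.82 in TPMCa and of -6.79, -9.25 and -7.07 in TPMR1, with edgeR adjusted p at 0.0181 or lower. Zeb2, a repressor of epithelial genes, rose by 2.21 in TPMCa (edgeR adjusted p = 0.0261) and by 2.24 in TPMR1 (edgeR adjusted p = 0.0210). Markers of other cell types also differed from TPM, in both directions. All 5 endothelial markers lay above TPM in TPMCa with a median log2 difference of 1.93 (4 at an unadjusted edgeR p under 0.05, 0 called), and 4 of 5 in TPMR1 with a median of 1.76. All 5 macrophage markers lay above TPM in TPMCa with a median of 1.98 (4 at an unadjusted p under 0.05, 0 called), and 1 of 5 in TPMR1 with a median of -0.29. Fibroblast markers lay above TPM in 5 of 5 genes in TPMCa (median 1.53) and in 2 of 5 in TPMR1 (median -0.37). Smooth muscle markers did so in 0 of 4 and 1 of 4 (medians -2.12 and -1.36). Neutrophil markers did so in 4 of 4 and 0 of 4 (medians 0.55 and -1.43), and 0 genes of these 3 lists were called. The part of all these markers in the change of Zeb2 was not tested. Its relative Zeb1 rose by 1.49 in TPMR1 (edgeR adjusted p = 0.0364). Snai2, whose family can bind the same E-box, went the other way. It was at 20.7 and 14.1 CPM in TPM and at 5.19 and 4.23 CPM in TPMCa. In TPMR1 it was at 2.98 and 2.45 CPM. By edgeR, Snai2 was called lower in TPMR1 and not in TPMCa. Trp63, the factor of basal stratified cells, was at 169 and 114 CPM in TPM, 0.190 and 1.11 CPM in TPMCa, and 0 and 10.4 CPM in TPMR1, and did not pass (edgeR adjusted p = 0.101 and 0.174). The 6 general epithelial markers had median log2 differences of -6.22 in TPMCa and -8.32 in TPMR1, with 4 and 6 of 6 called lower. Beside these medians, Jup was 1.61 and 3.83 less negative on the log2 scale and Dsg2 1.37 and 3.66 less negative. The TPMR1 value of Dsg2 rests on 1 library, since its log2 difference from TPM was -9.95 without TPMR1 replicate 2 and then lay below the median of -8.32. The offset from the same medians was -4.36 and -3.39 for Dsp, and -7.29 in TPMCa for Dsg3. These offsets are descriptions, and whether they differ from 0 was not tested.

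**Figure D4:**
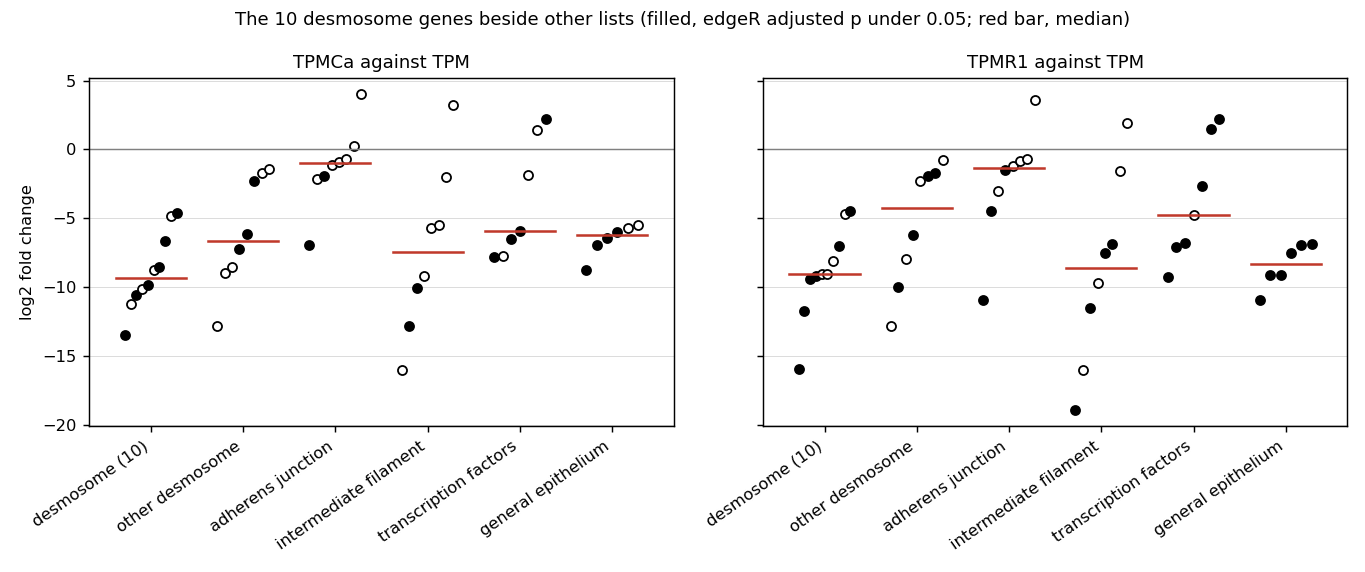
Log2 fold change from edgeR of each tested gene in 6 lists, in TPMCa and TPMR1 against TPM (filled, adjusted p under 0.05; red bar, median of the list). The 10 desmosome genes lie between -13.51 and -4.60 in TPMCa and between -15.91 and -4.49 in TPMR1, where the lowest value, of Dsg3, depends on the fit, and the adherens junction genes have medians of -1.01 and -1.34.

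Genes most like Dsp, Dsg2 and Dsg3 were looked up by the root mean square difference of centered log2 CPM over the 8 libraries, where 0 means the same profile. The 10 genes themselves were left out of the candidates. Dsp was nearest to Krt14 (0.586), then to Spink5 (0.789), an inhibitor of epidermal proteases, and Mal2 (0.799), beside a median of 5.39 over 10414 candidates. Dsg3 was nearest to the protease gene Tmprss11b (0.507), then to Krt14 (0.660) and Gabrp (0.693), beside a median of 5.74 over 13894 candidates. Dsg2 was nearest to Igsf9 (0.564), then to the receptor kinase gene Erbb2 (0.696) and the lipoxygenase gene Alox15 (0.845), beside a median of 3.02 over 10414 candidates. Among the 10 genes themselves, Dsc1 and Dsg1a were the closest pair (0.582), followed by Dsg3 and Dsp (0.638). Dsg2 and Dsg3, which are neighbors on the chromosome, were 3.53 apart.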

How the data were processed

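Poly(A) RNA was sequenced in paired 150-bp reads. The authors had reads trimmed by the sequencing company, aligned them to mm10 with STAR and deposited counts per gene symbol. The counter, its annotation and its strand setting are not given in the sources used here. The authors' table normalized with DESeq2 was not used. Columns of the deposited table were matched to samples by name (TPM is headed TPMS), and 0 columns were left unused. From the counts, one edgeR 4.0.16 quasi-likelihood fit over 8 libraries (TMM, filterByExpr, a term for the model, common dispersion 0.269) gave each comparison in R 4.3.3, with Benjamini-Hochberg adjustment over 15875 genes and calls at an adjusted p under 0.05. Log2 CPM used a prior count of 2. CPM per kilobase used exon lengths of GENCODE M21 on GRCm38. Replicates differed well beyond counting noise (chi-square per degree of freedom 109 or more), so none was a duplicate. Genes named besides the 10 come from fixed lists and, for Dsp, Dsg2 and Dsg3, the 3 nearest profiles among tested genes with a mean log2 CPM of at least 3 (at least 0 for Dsg3). Members and lists were chosen with earlier results of these data known. Alternatives were DESeq2 1.42.0 (also at the study's unadjusted p under 0.05 and log2 change beyond 1), other scalings and filters, a fit restricted to the compared models, a replicate block and leaving out each library. The fit was tested on simulated data. Results on some engineered genes are not reported here.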

Additional observations from a re-analysis of the deposited data

How the results depend on the processing

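The direction of all 10 genes against TPM in TPMCa and TPMR1, and in TPK and TPM against their mean, was the same under every alternative, and what moved was the number called. DESeq2 called 10 genes lower in TPMCa and 10 in TPMR1, 1 between TPK and TPM (Dsc1) and 1 between TPMR1 and TPMCa (Pkp3). The study's thresholds in DESeq2 gave 10, 10, 2 and 2. In the whole table these thresholds, which use an unadjusted p, called 3820, 3937, 1276 and 2378 genes in either direction. A fit of only the models compared gave 0 in TPMR1 against TPM. Leaving out 1 library gave 0 to 9 genes in TPMCa (0 without either TPMCa library, 9 without either TPMR1 library), 6 to 8 in TPMR1, 0 between TPK and TPM, 0 to 1 between TPMR1 and TPMCa, 6 to 8 higher in TPK and 6 to 10 higher in TPM. The cause of these moves was not tested. Apart from the fits without a TPMCa library, numbers called over all genes are not given for the fits without 1 library. They are not given for the fit of only the models compared either.

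Signs turned only in TPK against TPM and TPMR1 against TPMCa, the comparisons in which edgeR called 0 of the 10 genes with all libraries. In TPK against TPM, Dsc2 had a log2 difference of -0.017 under library size alone, a scaling that moved the median of all genes to -0.11 there (and to -0.13 in TPK against the mean of TPMCa and TPMR1), and with 1 library left out its values ran from -0.44 to 0.90. With 1 library left out, those of Dsg3 ran from -1.05 to 0.99, Dsp from -1.51 to 0.38, Pkp1 from -1.15 to 0.30, Pkp3 from -0.39 to 0.86 and Jup from -0.49 to 0.19, with the lowest values of Dsg3, Dsp and Jup found without TPM replicate 2 and the highest without TPM replicate 1. In TPMR1 against TPMCa, Dsc3 ran from -2.23 to 1.66, Dsg1a from -2.39 to 2.16, Dsg2 from -5.11 to 1.19, Dsp from -1.92 to 0.58, Pkp1 from -6.55 to 4.42 and Jup from -0.21 to 0.50, with the lowest values of Dsc3, Dsg1a, Dsg2 and Pkp1 found without TPMR1 replicate 2.

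The replicate block put Dsg2 at -0.54 in TPMR1 against TPMCa and gave 6, 6, 0, 0, 7 and 9 genes called in the 6 comparisons. Shares of all genes called with the block are not given here. Deviations of same-numbered libraries correlated between -0.069 and -0.008 in 6 pairs of models, so no pairing by number was seen over all genes. A batch shared by some models or in some genes was not tested. Depth limits Dsc1, Dsg1a and Dsg3 in TPMCa and TPMR1, where a level under 0.116 to 0.190 CPM was not detectable.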
